A study of Mus musculus with 4 samples.

Results

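Chemokines and inflammatory cytokines were examined in the mouse fibroblast line 3T3-L1, which turns into adipocytes in culture. The 10 genes were Ccl2, Ccl5, Ccl7, Ccl8, Cxcl1, Cxcl5, Cxcl10, Cxcl12, Il6 and Csf1, chosen by name from the gene names of the array. They were read by 15 probes (34 spots) among 55681 probes, and are 10 of 34793 genes or other named features. The cells were differentiated and then kept for 7 days with PBS, with 25 uM daidzein (an isoflavone of soy), with 100 ug/ml of a pig testis extract (PT) or with both agents (daidzein+PT). All 4 groups shared the differentiation step and the length of treatment. Each group was read on 1 single-colour (Cy3) array of 60-base probes. The differences below therefore have no replicate check, and whether fewer cells of a type or less RNA per cell gave a lower signal cannot be told apart.

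Chemokines are small secreted proteins that draw leukocytes along a gradient by acting on G protein-coupled receptors. In adipose tissue, adipocytes and their precursors release CC chemokines that attract monocytes, CXC chemokines that attract neutrophils or T cells, and cytokines such as interleukin 6 and the macrophage growth factor CSF1. Many of these genes are induced through NF-kB or through interferon signalling by STAT and IRF factors.

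The share of spots well above background ranged from 49.7% to 51.4% over the arrays, and 0 spots were saturated. PBS and daidzein lay in row 1 of the slide, and PT and daidzein+PT lay in row 2, so PT and slide row cannot be told apart. The cells are labelled adipocytes, and each of 9 adipocyte markers was detected on every array. Their summed signal (relative to each array's 75th percentile of probes) was 157 on PBS, 690 on daidzein, 295 on PT and 1121 on daidzein+PT. The summed signal of 10 preadipocyte and fibroblast markers was 1035, 849, 1014 and 898 in the same order. Dlk1, Col3a1 and Col1a1 were the brightest of these on PBS, at log2 signals of 8.87, 8.33 and 7.21 over the same percentile. Of 13 macrophage markers, Adgre1, Cd163, Cx3cr1, Fcgr1, Ptprc and Tyrobp were on no array well above background, and the summed signal of the list was between 29.9 and 32.2. Itgam gave 89.2% of that sum on PBS, and the other 12 markers summed to 3.48 there, 3.78 on daidzein, 3.49 on PT and 3.47 on daidzein+PT. The adipocyte sum was thus higher on every treated array. The fibroblast sum was lower on the arrays with daidzein and near that of PBS on PT. The part of these markers in the values below was not tested.

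The first 30 bases of the 60-base probes are given for the genes on which the results turn, with the 2 Csf1 probes that differed from each other. Positions are those of the array files on mouse build mm9.
Ccl2 (chr11:81850650-81850709, plus strand): tgtaggagtgaccagtgtgacagtgaacta
Ccl7 (chr11:81860656-81860715, plus strand): ttctgagaactgttgatgaaatgtgttgat
Ccl5 (chr11:83339296-83339355, minus strand): tctcagctgctccgaggctctgcacagcaa
Cxcl1 (chr5:91321845-91321904, plus strand): agaagtgcagagagatagagtttagtatta
Cxcl10 (chr5:92775781-92775840, minus strand): gctttgcattgtatatggaagaacttgtgt
Csf1, probe of NM_007778 (chr3:107544333-107544392, minus strand): tgtggggcttacttagccttctggttacag
Csf1, probe of NM_001113530 (chr3:107548521-107548580, minus strand): cagctgcatcatatattgtcatatgttgag
The probes of Ccl2, Ccl7 and Ccl8 lay within 79.5 kb of chromosome 11, and those of Cxcl5 and Cxcl1 within 131 kb of chromosome 5.

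Levels are log2 processed signals minus the 75th percentile of the array, and a difference is the first array named minus the second. The only gauge of spread was the SD of differences between 2 arrays over genes of like signal, obtained from the part of the 4 arrays that 2 additive treatment effects leave over. It was 0.33 for the dimmest, 0.14 for the middle and 0.11 for the brightest genes, and it is not an error between cultures. A gene was compared where Agilent's flag put it well above background on both arrays. By this flag 9 of the 10 were detected on every array, and Il6 on the daidzein and daidzein+PT arrays.

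**Figure D1:**
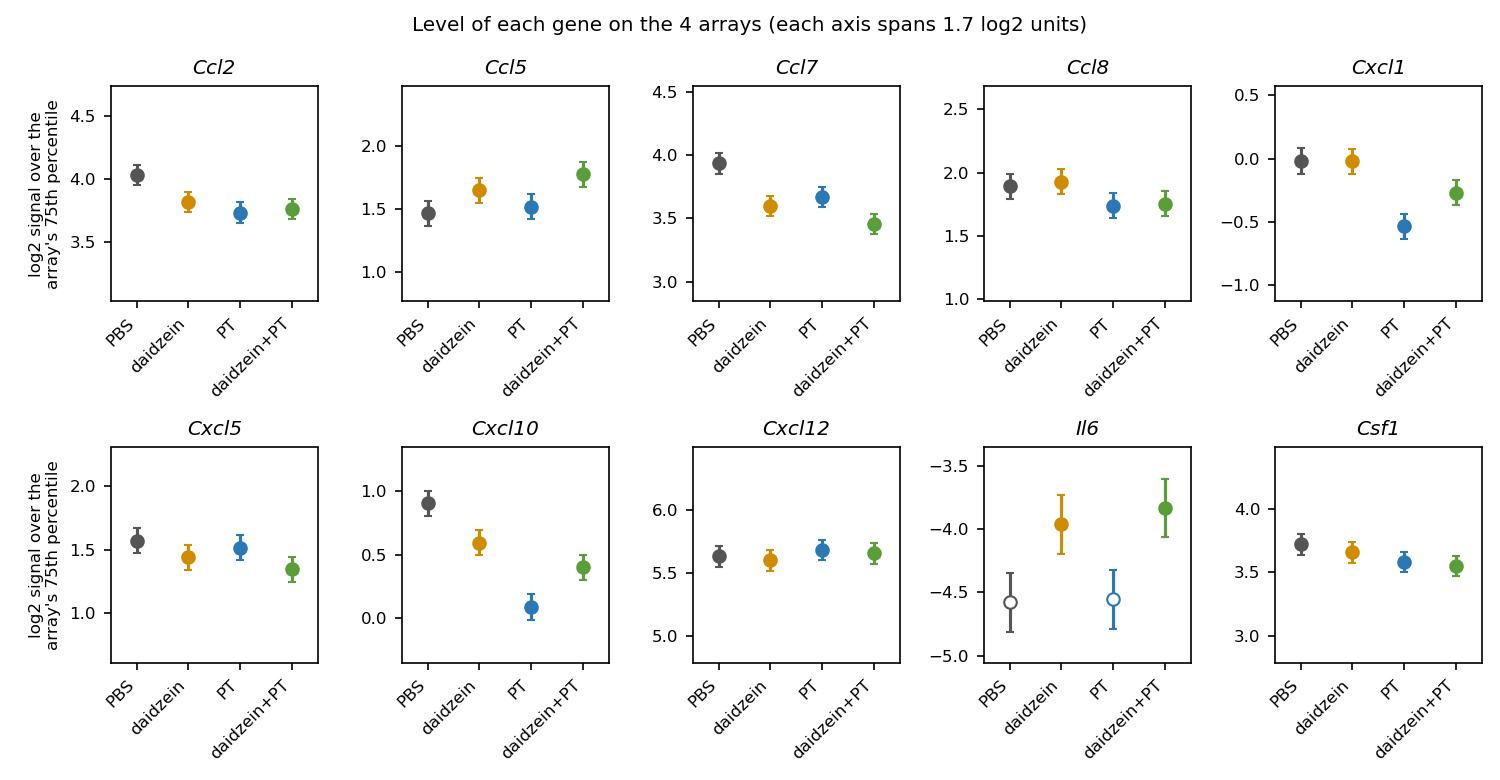
Level of each of the 10 genes (log2 signal over the array's 75th percentile, every axis spanning 1.7 log2 units) on the PBS, daidzein, PT and daidzein+PT arrays. Each point is 1 array, open where the probe was not well above background, and bars are the SD of 1 array taken from genes of like signal. Cxcl10 ranged from 0.09 to 0.90, whereas Cxcl12 stayed between 5.60 and 5.68.

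Cxcl10, Ccl7, Ccl2, Cxcl5 and the brightest probe of Csf1 were highest on the PBS array and lower on all 3 treated arrays. For Cxcl5 and Csf1 no step in that order exceeded the SD of like genes. Cxcl1 was at the same level on PBS and daidzein, and Ccl5 and the dim Il6 were lowest on PBS. None of the 9 genes measured on every array differed by 2-fold in any of the 5 comparisons. In 3 of these comparisons Il6 was detected on the first array named but not on the second. Cxcl10 on PT against PBS was the one difference of 1.5-fold or more among genes measured on both arrays. For PT over PBS, 1 of 9 genes was 1.5-fold or more lower, where 0.675% of 18809 genes were. No gene of the 9 was 1.5-fold higher, against 2.6% of all genes. At 2-fold the share of all genes was 0.861% higher and 0.0744% lower for PT over PBS, 1.1% and 0.37% for daidzein over PBS, and 2.5% and 0.563% for daidzein+PT over PBS. It was 1.06% and 0.113% for daidzein+PT over daidzein and 2.1% and 0.853% for daidzein+PT over PT, each beside 0 of the present genes.

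Among the CC chemokines, Ccl2 encodes the main monocyte attractant, which acts through CCR2. Its level was 4.03 on PBS, 3.82 on daidzein, 3.73 on PT and 3.77 on daidzein+PT. PBS was the high array, and the 3 treated arrays spanned 3.73 to 3.82, a range below the SD of 0.11. The Ccl2 probe was printed in 10 spots per array, with SDs of 0.06 to 0.07. The 10 PBS spots (3.93 to 4.11) did not overlap those of daidzein (3.68 to 3.89), PT (3.58 to 3.80) or daidzein+PT (3.66 to 3.83). The differences from PBS were -0.21 (daidzein), -0.30 (PT) and -0.27 (daidzein+PT). Spots of 1 array share its RNA, so their spread covers the reading of the array alone.

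Ccl7 encodes a monocyte attractant whose gene neighbours Ccl2. It measured 3.93 on PBS, 3.60 on daidzein, 3.67 on PT and 3.46 on daidzein+PT. Both single treatments were below PBS, the pair of them differing by 0.07, and the combination was lowest at 1.39-fold below PBS. The difference of -0.48 for daidzein+PT over PBS was 4.22 times the SD of like genes. In that comparison 5.27% of genes were as far below PBS as Ccl7.

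Ccl8, another gene of that stretch of chromosome 11 and also a monocyte attractant, measured 1.89 on PBS, 1.93 on daidzein, 1.74 on PT and 1.76 on daidzein+PT. The PT arrays were the low ones, and each step in this order was smaller than the SD of 0.14. Ccl5, which attracts T cells and monocytes, measured 1.47 on PBS, 1.65 on daidzein, 1.52 on PT and 1.78 on daidzein+PT. PBS was its lowest array, and daidzein+PT was 1.24-fold above it. Neighbours in its order differed by 0.13 or less, within the SD of 0.14. The difference of 0.31 for daidzein+PT over PBS was 2.19 times that SD, and 13.4% of genes were as far above PBS.

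**Figure D2:**
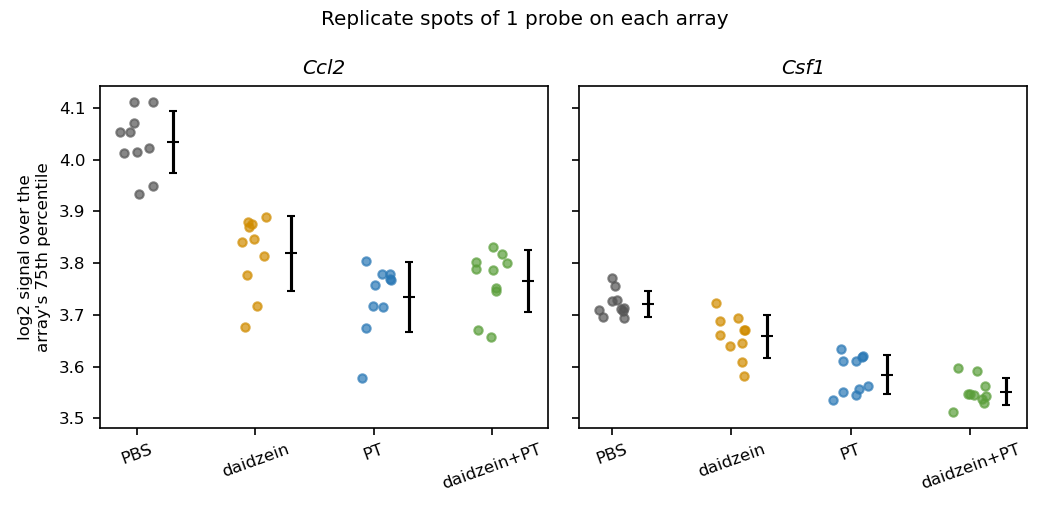
Replicate spots of the Ccl2 probe and of the brighter Csf1 probe on each array (log2 signal over the array's 75th percentile), 10 spots per array, with mean and SD beside them. All Ccl2 spots of PBS lie above all those of the treated arrays, whose means are 3.73 to 3.82.

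Of the CXC chemokines, Cxcl10 encodes an interferon-inducible attractant of T cells that acts through CXCR3. Its level was 0.90 on PBS, 0.59 on daidzein, 0.09 on PT and 0.40 on daidzein+PT. All 3 steps in that order exceeded the SD of 0.14. PT was 1.76-fold below PBS (-0.82), and 0.186% of 18809 genes were as far below. With daidzein present, daidzein+PT over daidzein gave -0.19, and the first difference subtracted from the second left 0.63. That departure from additive effects was 3.15 times the SD of the same quantity in genes of like signal. Its second probe was not well above background on any array, and averaging it in moved daidzein+PT over daidzein to -0.45 and daidzein+PT over PBS from -0.50 to -0.74.

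Cxcl1 encodes a neutrophil attractant that acts through CXCR2. It measured -0.02 on PBS, -0.02 on daidzein, -0.53 on PT and -0.27 on daidzein+PT. The 2 arrays without PT were at the same level, and the 2 with PT were lower, by -0.52 without daidzein and -0.25 with it. Cxcl5, which acts through the same receptor and lies near Cxcl1, measured 1.57 on PBS, 1.44 on daidzein, 1.52 on PT and 1.34 on daidzein+PT. No step in its order exceeded the SD of 0.14. Daidzein+PT over PBS gave -0.23 for Cxcl5, 1.61 times that SD, and 20.1% of genes were as far below. Cxcl12, the ligand of CXCR4 that stromal cells make, measured 5.63 on PBS, 5.60 on daidzein, 5.68 on PT and 5.66 on daidzein+PT. Its whole range was 0.08, below the SD of 0.11. A second Cxcl12 probe, for another transcript, ran from 5.44 to 5.49.

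Il6 encodes interleukin 6, a cytokine that signals through IL6RA and IL6ST. It measured -4.58 on PBS, -3.96 on daidzein, -4.56 on PT and -3.83 on daidzein+PT, close to the dimmest probes well above background (-4.69 to -4.35 by array). The 2 arrays with daidzein were the high ones, and the probe was not well above background on the others. The Il6 signal was 1.53-fold higher on daidzein than on PBS and 1.68-fold higher on daidzein+PT than on PBS. It was 1.65-fold higher on daidzein+PT than on PT. These are differences of measured signals and not lower bounds, since the probe was not well above background on PBS or PT. With normexp background correction the log2 differences shrank to 0.08, 0.22 and 0.31.

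Csf1 encodes the growth factor of macrophages, which acts through CSF1R. Its brightest probe, also in 10 spots, measured 3.72 on PBS, 3.66 on daidzein, 3.58 on PT and 3.55 on daidzein+PT. The PBS spots (3.69 to 3.77) did not overlap those of PT (3.54 to 3.63) or daidzein+PT (3.51 to 3.60) and did overlap those of daidzein. No step in its order exceeded the SD of 0.11 between arrays. The 2 probes of another Csf1 transcript ran differently: their differences from PBS lay between 0.02 and 0.14 and were all above 0. The remaining Csf1 probe was not well above background on any array.

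For daidzein over PBS, 0 of 9 genes were 1.5-fold lower, where 2.42% of 18919 genes were, and 0 were higher, where 3.11% were. For daidzein+PT over PBS the 0 lower genes stand beside 3.08% of 18466 genes and the 0 higher ones beside 5.92%. For daidzein+PT over daidzein and over PT the background of genes 1.5-fold lower was 0.921% and 3.59%, and of those higher 3.15% and 5.06%, with 0 of 10 and 0 of 9 of the present genes. The median difference of the genes was -0.15 for PT over PBS, -0.06 for daidzein over PBS and -0.23 for daidzein+PT over PBS, against -0.03, -0.03 and -0.04 over all genes. PT over PBS and daidzein+PT over PBS each had 7 of 9 genes below 0, beside 58.2% and 56.1% of all genes. Daidzein over PBS had 7 of 9 as well, beside 55.8%. These 3 comparisons share the PBS array. The 7 for daidzein over PBS include Cxcl1 (-0.003) and Cxcl12 (-0.03), both near 0. With cyclic loess normalization these were above 0, at 0.009 and 0.015, so that count depends on the processing.

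Of the genes, 7 of 10 were below 0 for daidzein+PT over daidzein, beside 49.4% of all genes, and 4 of 9 for daidzein+PT over PT, beside 51.4%. The medians were -0.10 for daidzein+PT over daidzein and 0.02 for daidzein+PT over PT, against 0.00 and -0.01 over all genes. The latter was between -0.04 and 0.03 under other processing, so it had no settled sign. Where daidzein was added to PT, Cxcl10 (0.31), Cxcl1 (0.26) and Ccl5 (0.26) were higher and Ccl7 (-0.21) was lower.

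**Figure D3:**
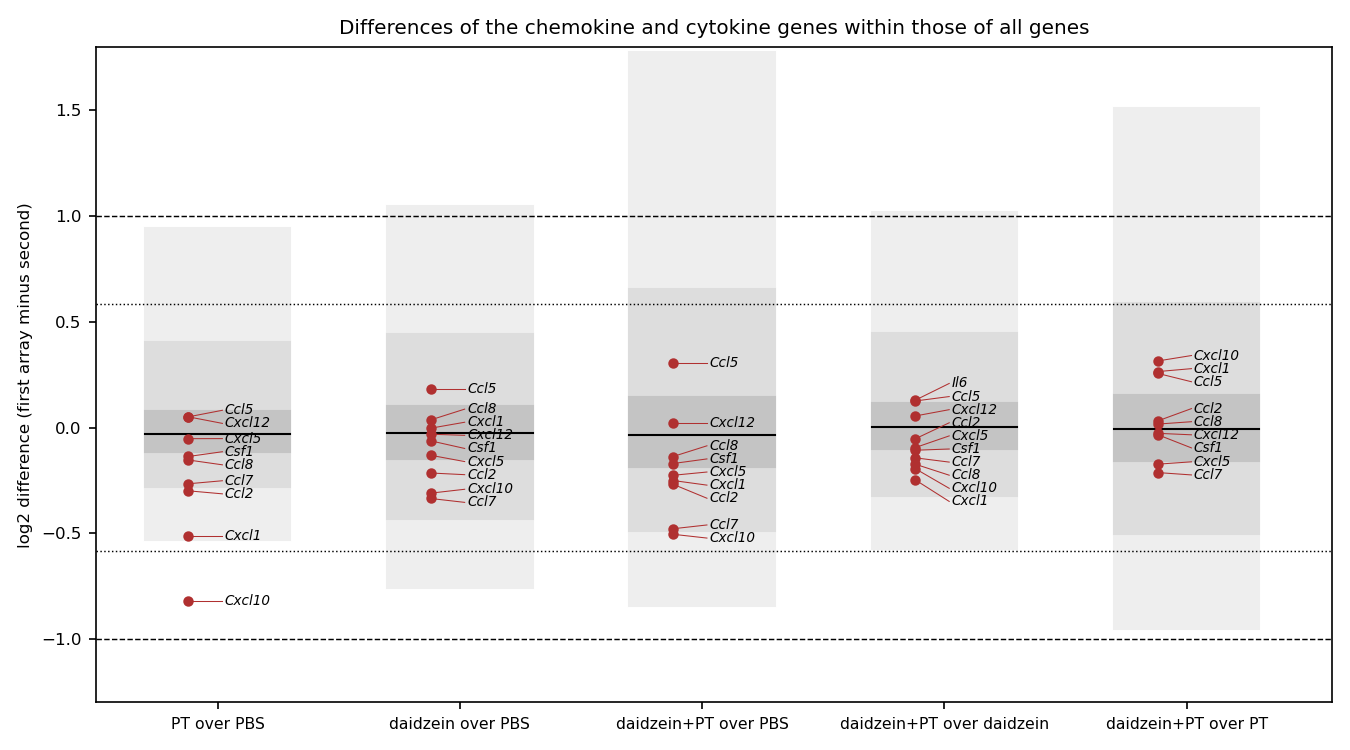
Log2 differences of the genes well above background on both arrays (red points) in the 5 comparisons; grey bands hold 98%, 90% and 50% of all genes and the black line is their median. Dotted lines mark 1.5-fold and dashed lines 2-fold. Cxcl10 for PT over PBS (-0.82) is the one point outside the widest band.

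An additive model with a daidzein and a PT term, each level of a treatment being on 2 arrays, was fitted with limma to 19571 genes. The daidzein term passed a Benjamini-Hochberg adjusted p of 0.05 for 2 of 10 genes, where 16.8% of all genes passed, 9.23% as higher and 7.54% as lower. Ccl7 fell by 0.27 (limma, Benjamini-Hochberg adjusted p = 0.00379, and 0.000403 to 0.270 over 8 other settings, of which 7 kept the call). Ccl5 rose by 0.22 (limma adjusted p = 0.0390, and 0.01135 to 0.322 over the other settings, of which 1 kept the call). A share of 2 in 10 is near that of all genes. Il6 had the wider estimate of 0.67 (confidence interval -0.15 to 1.49) and did not pass (limma adjusted p = 0.317).

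The PT term passed for 2 of 10 genes, where 4.05% of all genes passed, 3.22% as higher and 0.823% as lower. Cxcl10 fell by 0.51 (limma adjusted p = 0.000264, and 1.29e-07 to 0.687 over the other settings, of which 2 kept the call). Cxcl1 fell by 0.38 (limma adjusted p = 0.0171, and 0.00669 to 0.616 over the other settings, of which 1 kept the call). The fit has 1 residual degree of freedom and borrows the spread from other genes with 51.3 prior degrees of freedom, against 2.32 to 12.5 in the alternatives that keep the filter on dim probes. It takes the Cxcl10 departure from additive effects as error, and in simulated arrays false calls exceeded the aimed 5% in most draws under 1 of 2 models of the noise and in some under the other. The adjusted p-values may therefore be too small.

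Promoter windows of 250 bases before to 50 after the gene start were taken from a RefSeq table (GRCm38.p6), in which 6 of the 10 genes were matched. Those of Cxcl10 and Cxcl1, the genes that passed in the PT term, are shown with letters matching searched motifs in capitals. The motifs, on both strands, were the interferon element (GAAA, any 2 bases, GAAA), the STAT element TTCNNNGAA, the AP-1 element TGANTCA and the NF-kB consensus.
Cxcl10 (chr5:92348840-92349139, minus strand): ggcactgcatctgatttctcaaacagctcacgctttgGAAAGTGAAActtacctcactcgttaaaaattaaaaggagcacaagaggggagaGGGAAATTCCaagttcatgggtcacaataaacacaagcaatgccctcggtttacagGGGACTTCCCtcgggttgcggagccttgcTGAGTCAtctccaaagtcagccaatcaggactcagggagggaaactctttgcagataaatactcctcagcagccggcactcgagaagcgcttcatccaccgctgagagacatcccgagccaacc
Cxcl1 (chr5:90890995-90891294, plus strand): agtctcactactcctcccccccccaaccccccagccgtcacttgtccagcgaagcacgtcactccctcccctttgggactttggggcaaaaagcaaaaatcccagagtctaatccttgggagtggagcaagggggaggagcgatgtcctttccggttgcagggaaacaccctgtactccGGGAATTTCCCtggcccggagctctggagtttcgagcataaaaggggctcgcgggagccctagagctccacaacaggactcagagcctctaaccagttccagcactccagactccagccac
The Cxcl10 window held 1 match of the interferon element, 2 of the NF-kB consensus and 1 of the AP-1 element, and the Cxcl1 window 2 overlapping matches of the NF-kB consensus. Of 32851 promoter windows of this length, 3.44% held the interferon element, 4.51% the NF-kB consensus, 7.81% the AP-1 element and 8.30% the STAT element. Among the 6 genes the interferon element was in 1 window, the NF-kB consensus in 4, the AP-1 element in 2 and the STAT element in 0. A match describes the letters of the window and not binding.

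Of 15 chemokine and cytokine receptor genes, Ackr3, Il6st, Il6ra and Csf1r were well above background on all 4 arrays and 9 were so on none, among them Ccr1, Ccr2, Cxcr2, Cxcr3 and Cxcr4. In the limma daidzein term 2 of 5 tested receptor genes passed as lower and 0 as higher, beside 7.54% and 9.23% of all genes. Ackr3, a scavenging receptor of CXCL12, measured 0.55 on PBS, 0.05 on daidzein, 0.36 on PT and -0.05 on daidzein+PT, and Il6st, the shared signal chain of the interleukin 6 family, measured 4.09, 3.81, 3.91 and 3.65 in that order. Both were lowest where the treatments were combined, and both passed in the daidzein term (limma adjusted p = 0.000149 and 0.00416). In the PT term 0 of 5 passed (limma), beside 4.05% of all genes.

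Of 28 other chemokines 13 were well above background on all 4 arrays. In the daidzein term 3 of 14 tested passed as lower and 0 as higher, beside 7.54% and 9.23% of all genes, and 0 passed in the PT term, beside 4.05%. For daidzein+PT over PBS the list had a median of 0.17, with 7 of 13 genes above 0. Pf4, platelet factor 4, had the largest difference there (0.77), at -3.41 on PBS, -2.84 on daidzein, -3.37 on PT and -2.63 on daidzein+PT, and did not pass in either term. Cx3cl1, the membrane-bound chemokine fractalkine, measured 3.50 on PBS, 3.04 on daidzein, 3.39 on PT and 2.90 on daidzein+PT, with the daidzein arrays low. Cxcl13, a B cell attractant, measured 1.82, 1.48, 1.95 and 1.39 in the same order. Both passed as lower in the daidzein term (limma adjusted p = 4.92e-07 and 8.20e-06). Of the inflammatory cytokines outside the 10 genes, 2 of 10 tested passed as lower and 0 as higher in the daidzein term, beside those same shares. In the PT term 0 passed, again beside 4.05% of all genes. Tnf and Il1b, the classical inflammatory inducers, were not well above background on any array. Il1a and Ifnb1, named after their values were seen, were well above background on the daidzein+PT array alone. There they measured -3.498 and -3.01, which was 2.29-fold and 3.22-fold above the dimmest probe well above background on PBS. Ccl1 was well above background on daidzein alone and Ackr2 on PBS alone, likewise named afterwards. How many of all genes were so on a single array was not counted. Spp1, which encodes osteopontin, differed by -0.61 for daidzein+PT over PBS and by 0.18 for PT over PBS.

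**Figure D4:**
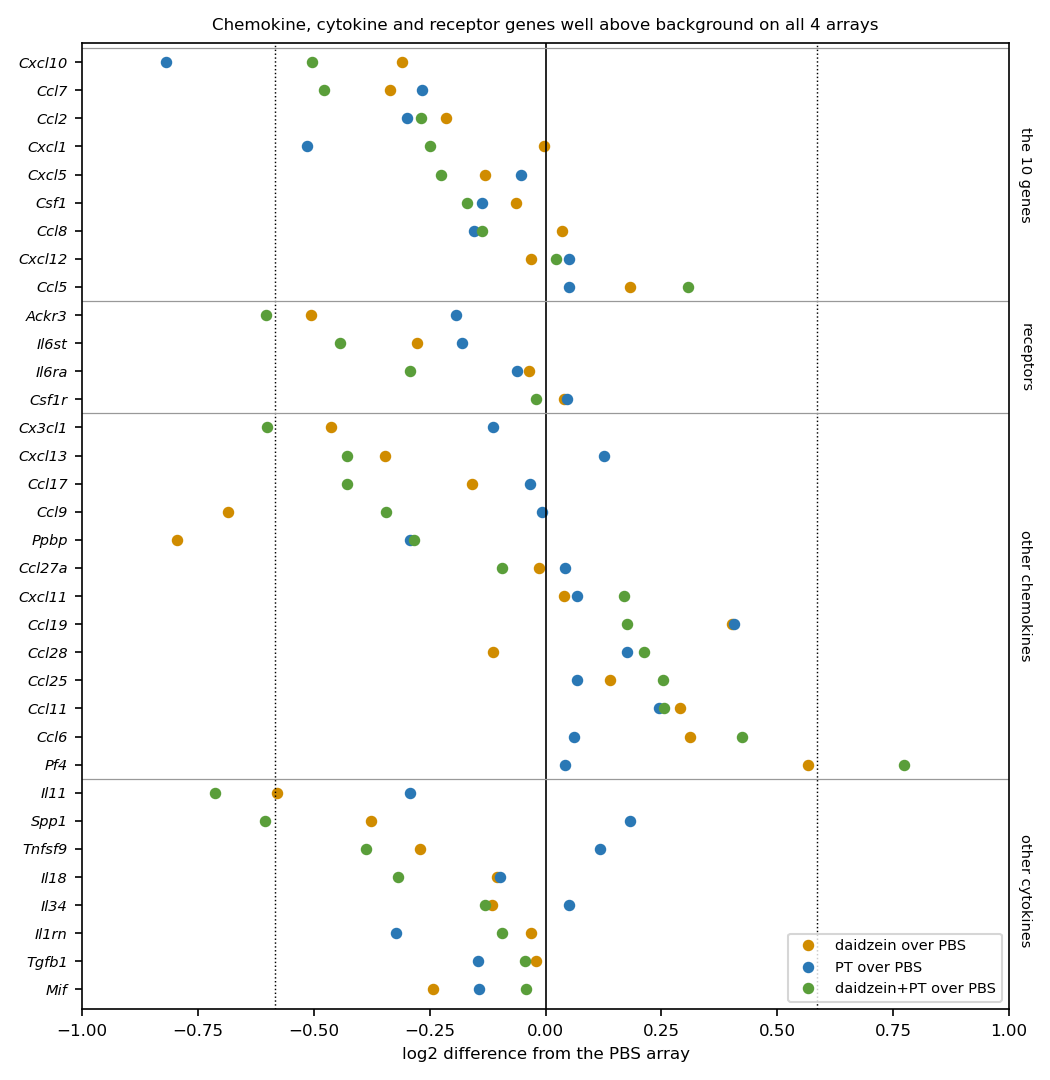
Log2 difference from the PBS array for the genes of the chemokine, receptor and cytokine lists that were well above background on all 4 arrays, 1 point per treated array; dotted lines mark 1.5-fold. Ackr3, Cx3cl1, Il11 and Spp1 lie beyond 1.5-fold lower on daidzein+PT and Pf4 beyond 1.5-fold higher, whereas none of the 9 drawn of the 10 genes does.

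Of 23 STAT, IRF and SOCS regulators 22 were tested. In the PT term 4 passed as lower and 0 as higher, beside 0.823% and 3.22% of all genes. In the daidzein term 4 passed as lower and 1 as higher, beside 7.54% and 9.23% of all genes. Irf7, an interferon-induced factor, measured -0.21 on PBS, -0.60 on daidzein, -0.61 on PT and -1.25 on daidzein+PT. Stat2 measured 4.17, 3.92, 3.94 and 3.41, and Irf9, its partner in interferon signalling, 3.30, 3.00, 3.10 and 2.58. For all 3 the single treatments were each below PBS and the combination lowest, and they passed in both terms (limma adjusted p between 1.79e-05 and 0.00411). Cxcl10 differed in order, with daidzein+PT above PT.

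Of 23 tested genes of the NF-kB pathway and its targets, 2 passed as higher and 3 as lower in the daidzein term. Over all genes 9.23% passed as higher and 7.54% as lower. In the PT term 1 passed as higher and 0 as lower, beside 3.22% and 0.823% of all genes. Lcn2, which encodes the iron-carrier-binding protein lipocalin 2, measured 0.71 on PBS, 2.28 on daidzein, 1.497 on PT and 3.14 on daidzein+PT, rising in both terms. Traf1, of the same list, measured -0.22, -0.93, -0.36 and -0.65 in that order and passed as lower in the daidzein term. Among 19 tested receptors and adaptors of innate signals, 1 passed as higher and 4 as lower in the daidzein term. In the PT term 0 passed as higher and 1 as lower. The shares of all genes given above apply here too. Tlr2, a receptor of bacterial lipoproteins, measured 2.93, 2.64, 2.76 and 2.42 in the order above. Calls in these lists were made at the same setting as for the 10 genes and share its limits.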

How the data were processed

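RNA of the 4 groups was labelled with Cy3 and hybridized to 1 Agilent mouse array each, per the labels. The deposited scanner output gives for each spot a linear intensity, subtracted for background and detrended by Agilent Feature Extraction, per the file headers. Flags for background, saturation, outliers and controls come with it, per the file headers. The headers give version 10.7.1.1 and the submitters' processing notes 9.5.1.1. The authors' deposited series table, an intensity whose columns share 1 distribution by their values, served only as an alternative.

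Control and outlier spots were left out. Values were put on the log2 scale and the array's 75th percentile (372 for PBS, 406 for daidzein, 418 for PT, 360 for daidzein+PT) was subtracted. Spots of a probe were averaged, and a gene is represented by its brightest probe. Names of 3098 probes were updated from the reference table, and old names were merged after results had been seen, which changed no call of the 10 genes. limma 3.58.1 (R 4.3.3) fitted daidzein and PT as additive terms, with an intensity trend, to genes detected in this sense on 2 or more arrays, with Benjamini-Hochberg adjustment. Other steps used Python 3.11.15 and pandas 2.3.3. With 1 array per group no other test was made.

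The limma step was tested on simulated arrays. A first model of the noise, with 1 SD for each of 3 signal classes, gave more false calls than the adjustment aims at in most draws. A second model, with the SD following the signal, was written after that failure and gave false shares near the aim, above it in some draws. The fit itself was not changed, so its adjusted p-values depend on which noise model holds.

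The text names the 10 genes with all their probes. From each list it names genes among the 4 with the largest difference for daidzein+PT over PBS and receptors well above background on all arrays. Other list genes are named for their absence, and no gene met the rule for likeness in pattern, since none of the 9 measured on all arrays ranged over 2-fold. The 10 genes and the lists were chosen with earlier results of these data known. Alternatives were normexp (offset 50), quantile and cyclic loess normalization, the deposited table, the probe mean, no filter and no trend. A further one took the 75th percentile over the probes well above background on all 4 arrays.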

Additional observations from a re-analysis of the deposited data

Results flagged for a closer look

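Cxcl10 moved in opposite directions when daidzein was added without and with PT. Daidzein over PBS gave a log2 difference of -0.31, and daidzein+PT over PT gave 0.31. With 1 array per group the difference between these values was not tested. The size of each was over 2 times the SD of like genes (2.21 and 2.24). For daidzein over PBS 9.18% of all genes were as far below, and for daidzein+PT over PT 12.9% were as far above. With the mean over both Cxcl10 probes the 2 differences were -0.29 and 0.17.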

How the results depend on the processing

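The median differences of the genes compared moved by less than the spread of single genes of like signal under all 7 alternatives. That spread is of the size of the medians themselves. A median could therefore change sign within it, as that of daidzein+PT over PT did. Single genes moved under the probe mean, which took Cxcl10 to -0.74 for daidzein+PT over PBS (1 gene then 1.5-fold lower), 0.17 for daidzein+PT over PT and -0.45 for daidzein+PT over daidzein, and Csf1 to -0.05 and 0.03 for daidzein+PT over PBS and over daidzein. The Csf1 mean takes in the probe that was not well above background on any array. For daidzein+PT over daidzein that probe gave 0.34, and the other Csf1 probes gave -0.11, -0.04 and -0.06. Il6 moved under normexp. The counts of genes passing in the limma fit did not hold. In the daidzein term 1 gene (Ccl7) passed in place of 2 under normexp, quantile, cyclic loess, the percentile over detected probes, the deposited table and the probe mean, and 0 passed without the trend (2 at an unadjusted p under 0.05). In the PT term 1 (Cxcl10) passed in place of 2 under the percentile over detected probes. In the same term 0 passed under normexp, quantile, cyclic loess, the deposited table, the probe mean and without the trend (limma, 1 to 5 genes at an unadjusted p under 0.05). Without the filter 3 passed, with Ccl7. Over all genes 792 passed in the PT term, against 12 to 2020 in the alternatives, and 3281 in the daidzein term, against 68 to 4358. With normexp 175 genes in place of 489 were 1.5-fold higher for PT over PBS, and 17 in place of 127 lower. The causes were not tested. Median shifts of all genes stayed within 0.065 with the filter and reached 0.0958 without it. Array number and, for Il6, signal near background limit the precision. No paired analysis was possible because each group has 1 array.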
